A study of Homo sapiens with 2 samples.

Results

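The genes described here are those for the binding, cell uptake and use of vitamin B12 (cobalamin): TCN1, TCN2, CD320, LMBRD1, MMACHC, MTR, MTRR, MMAA, MMAB and MMUT. They were taken as all probe sets that the array annotation assigns to 1 of these 10 genes, by current or former symbol, which gave 20 of the 54675 probe sets and 10 of 19775 named genes. The RNA came from subclones of HMC1, an established human cell line derived from mast cell leukaemia. HMC1 cells had been sorted with an antibody against CD2, an adhesion receptor, into a subclone with CD2 on its surface (CD2-positive, CD2+) and a subclone without it (CD2-negative, CD2-), with no further treatment named in the labels. The sample titles call only the CD2+ sample a subclone and name the other as HMC1 cells, and both are called subclones here. Whether either grew from a single cell is not stated in the labels. RNA of each was labelled with biotin and hybridised to 1 Affymetrix U133 Plus 2.0 array, so each group held 1 sample. No difference below has a replicate check, and none carries a p-value or standard error. The group was chosen by the measured intensities and log2 difference of TCN1 on these same arrays, together with the known roles of the other genes, so the TCN1 values are a description and support nothing beyond themselves.

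Vitamin B12 travels bound to proteins. Haptocorrin, the product of TCN1, binds it in saliva, gastric juice and plasma and is also stored in the specific granules of neutrophils, whereas transcobalamin, the product of TCN2, carries it into cells through the receptor CD320. The carrier is broken down in the lysosome, LMBRD1 and ABCD4 take part in the exit of the vitamin to the cytosol, and MMACHC strips its upper ligand. The vitamin then serves methionine synthase (MTR) in the cytosol and methylmalonyl-CoA mutase (MMUT) in mitochondria.

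Both arrays gave whole-number normalised intensities with similar sums, 1860969 on the CD2+ and 1875750 on the CD2- array. Probe sets for Bacillus transcripts, absent from human RNA, read 1 to 4, and a probe set at or below 4 on both arrays is said here to read at background. A gene was represented by its brightest probe set and compared where the brighter array reached 64, called the floor. It was counted where the log2 difference, CD2-positive minus CD2-negative, was at least 1 in size, which is 2-fold. By this rule 1.96% of the 3564 genes above the floor were counted, 1.21% as higher and 0.758% as lower in the CD2-positive subclone. Their median log2 difference was -0.05, which centring on the hybridisation controls moves to 0.14. The same centring changes the split of counted genes from 43 higher and 27 lower to 71 higher and 14 lower. CD2 itself read 219 on the CD2+ and 13 on the CD2- array, as the labels have it. Of 7 measured mast cell markers 6 were above the floor, among them KIT at 1373 and 1328 on the CD2+ and CD2- array. The seventh, FCER1A, read 27 and 8.

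Of the 10 vitamin B12 genes, 3 were above the floor, TCN1, LMBRD1 and MTR, and 7 were below it. TCN1 was counted as lower in the CD2-positive subclone and no member was counted as higher. For lower genes the background share is 0.758%, and nothing is read from the comparison because TCN1 was chosen for this difference. The member just inside the floor was MTR, whose brighter array read 65, and the one just outside was MMUT at 62. The brightest probe sets of the other 9 genes had log2 differences from -0.38 to 0.47. All 9 lay within the middle 95% of the genes above the floor, from -0.68 to 0.70. That range holds 95% of those genes by construction, and 7 of the 9 are themselves below the floor. Over all 10 genes 4 differences were negative, 5 positive and 1 was 0.

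**Figure D1:**
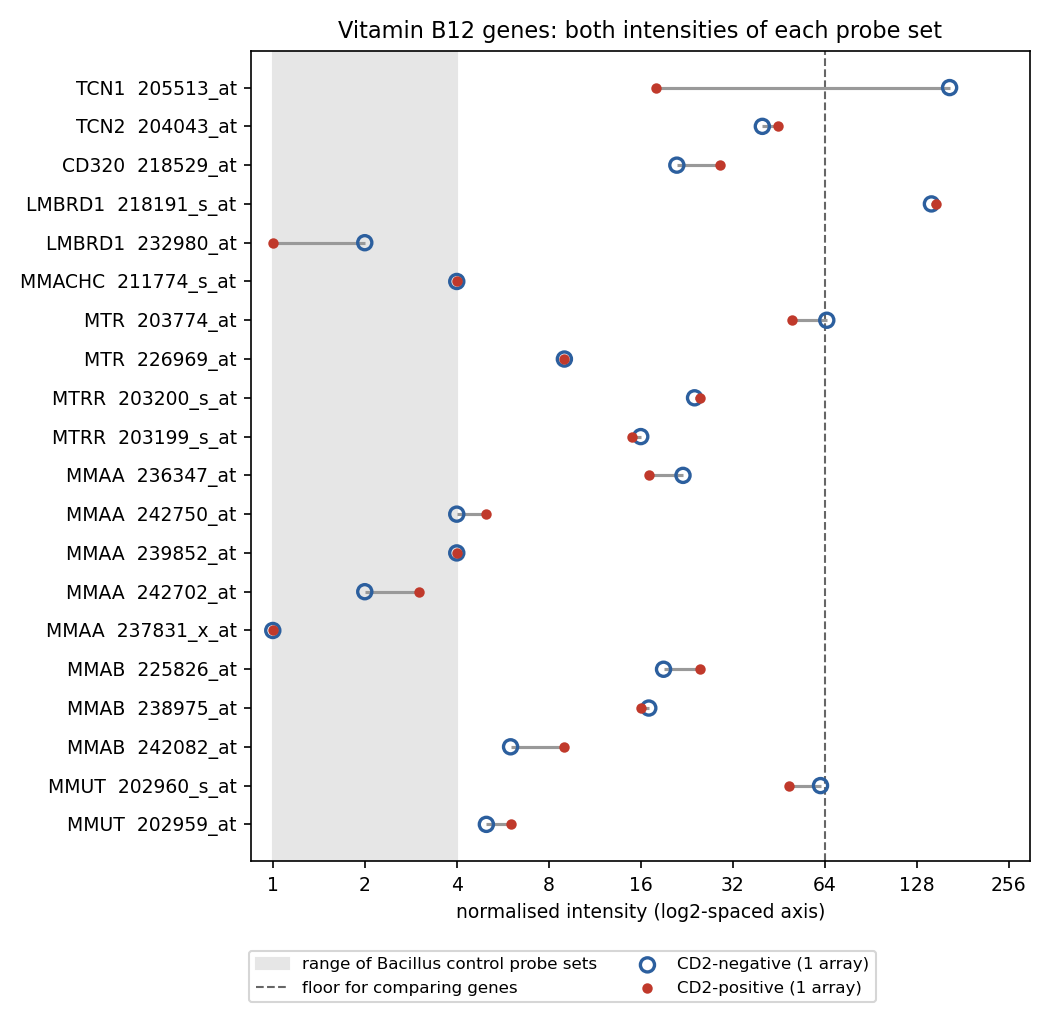
Both intensities of each of the 20 probe sets of the vitamin B12 genes, on a log2-spaced axis, with 1 array per subclone, the range of the Bacillus control probe sets shaded (1 to 4) and the floor of 64 as a dashed line. The TCN1 probe set spans 18 to 164, whereas the paired points of the other brightest probe sets lie close together.

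Of the binders of the vitamin, TCN1 was past 2-fold and TCN2 was not. TCN1 (probe set 205513_at) read 18 on the CD2+ and 164 on the CD2- array, a log2 difference of -3.19. The rounding of the deposited values to whole numbers leaves a range of -3.23 to -3.14 for it. The CD2-negative value was above the floor, and the CD2-positive value was below the floor but above the highest Bacillus value of 4. TCN1 had the most negative difference of all 54675 probe sets and ranked 4 of 3564 by size in either direction among genes above the floor. Among 3810 probe sets whose mean log2 level lay within 0.5 of that of TCN1, the middle 95% of log2 differences ran from -0.68 to 0.65. Since TCN1 has a single probe set, no other probe set gives a second reading of it. Adding 16 units to both intensities, which shrinks differences of dim probe sets, gave -2.40.

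TCN2 (204043_at), the gene of the carrier that delivers the vitamin to cells, read 45 on the CD2+ and 40 on the CD2- array. Its log2 difference was 0.17, with a rounding range of 0.14 to 0.20. Both values were below the floor and well above the Bacillus range. The gene of the other B12 binder, CBLIF (gastric intrinsic factor), read 2 on both arrays, at background.

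**Figure D2:**
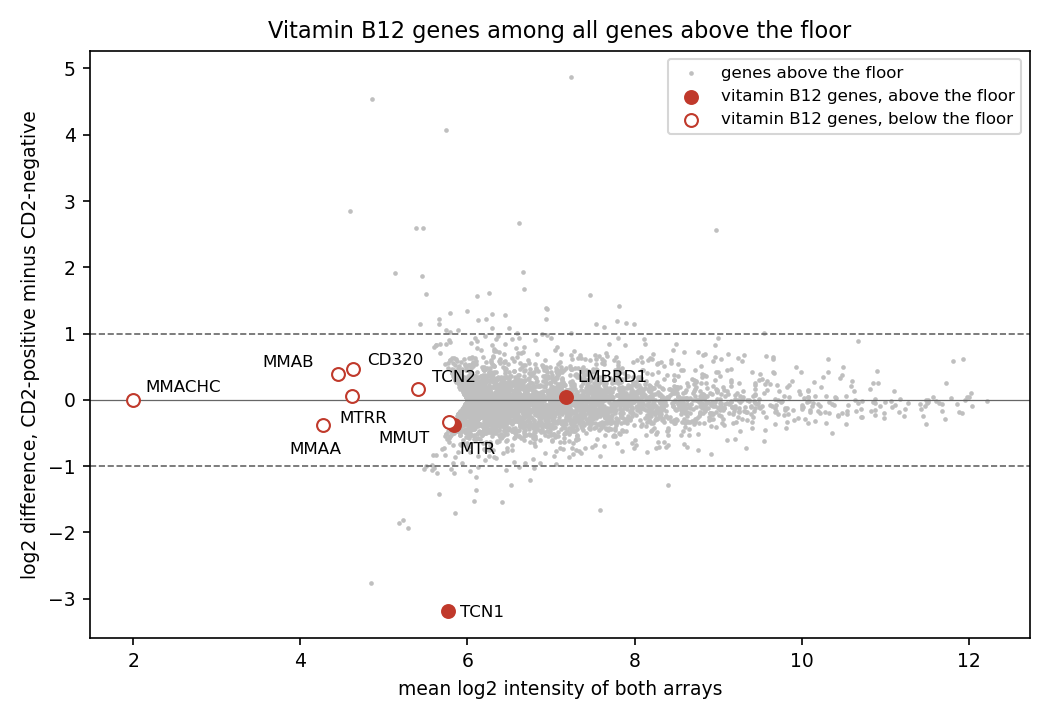
Log2 difference, CD2-positive minus CD2-negative, against the mean log2 intensity of both arrays for genes above the floor (grey) and the 10 vitamin B12 genes (filled above the floor, open below it), with dashed lines at 2-fold. TCN1 lies at -3.19 below all grey points, and the other 9 genes lie between -0.38 and 0.47.

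The genes of uptake and of release from the lysosome showed no difference near 2-fold in their brightest probe sets. CD320 (218529_at), which encodes the receptor for transcobalamin with its bound vitamin, read 29 on the CD2+ and 21 on the CD2- array. Its difference of 0.47 was the most positive among the 10 genes, and centring on the hybridisation controls gave 0.65. For 4507 probe sets of similar level the middle 95% ran from -0.70 to 0.74, so the CD320 difference lay inside that spread. LMBRD1 (218191_s_at), which encodes a lysosomal membrane protein, read 148 and 143 on the CD2+ and CD2- array, both above the floor. Its difference of 0.05 was smaller than 0.13, the standard deviation for 1 probe set found from pairs of probe sets of 937 genes, which covers probe behaviour and no variation between cultures. A further LMBRD1 probe set (232980_at) read 1 and 2, so its nominal log2 difference of -1 lies within background, and rounding alone allows -2.32 to 0. MMACHC, the gene of the enzyme that prepares the incoming vitamin for both cofactor forms, read 4 on both arrays in its only named probe set (211774_s_at). That is at background, and rounding allows a log2 difference of -0.36 to 0.36.

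The branch that leads to methionine was represented by MTR and MTRR. MTR, whose enzyme uses methylcobalamin to turn homocysteine into methionine, read 50 on the CD2+ and 65 on the CD2- array (203774_at). The log2 difference was -0.38, with a rounding range of -0.40 to -0.35, and it was -0.20 when centred on the hybridisation controls. Its other probe set (226969_at) read 9 on both arrays, a difference of 0. MTRR, the gene of the reductase that reactivates methionine synthase, read 25 and 24 on the CD2+ and CD2- array (203200_s_at), and 15 and 16 in its dimmer probe set (203199_s_at). Its probe sets thus differed in sign, at 0.06 and -0.09, and the rounding range of each reached 0.

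The mitochondrial branch was represented by MMAB, MMAA and MMUT. MMAB, which encodes the adenosyltransferase that makes adenosylcobalamin, had 3 probe sets. The brightest (225826_at) read 25 on the CD2+ and 19 on the CD2- array, a log2 difference of 0.40, and the others read 16 against 17 and 9 against 6. One of the 3 was therefore lower and 2 were higher in the CD2-positive subclone, and only the smallest of these differences, -0.09, had a rounding range that reached 0. MMAA, which encodes the GTPase that guards loading of the cofactor onto the mutase, read 17 and 22 in its brightest probe set (236347_at), a difference of -0.37. Its other 4 probe sets read between 1 and 5 on both arrays, and 3 of them were at background. MMUT, the gene of the mutase that converts methylmalonyl-CoA to succinyl-CoA, read 49 on the CD2+ and 62 on the CD2- array (202960_s_at). This gave a log2 difference of -0.34 with a rounding range of -0.37 to -0.31, and -0.16 when centred on the hybridisation controls. Its dimmer probe set (202959_at) read 6 and 5, so the 2 MMUT probe sets differed in sign.

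The signs of the brightest probe sets did not change under centring on the median, centring on the hybridisation controls, a lowess correction or the addition of 16 units, except for MMACHC, whose 0 became 0.04, 0.18 and -0.01 under the first 3. Of the 6 genes with more than 1 probe set, none had a second probe set above the floor.

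The place of the genes in the genome was taken from RefSeq gene order on assembly GRCh38.p14, with up to 10 genes above the floor on each side. TCN1 on chromosome 11 lay among 20 such genes with a median log2 difference of -0.03, ranging from -0.43 to 0.74, and none of them was past 2-fold. The named genes next to TCN1 were CBLIF on one side, at 2 on both arrays, and OOSP2 on the other, at 2 and 1, both at background. Genes at background on both arrays cannot show a difference. Further out, MRPL16, below the floor, read 56 and 60. MTR on chromosome 1 differed from TCN1 in this respect. Its 16 neighbours above the floor, only 6 of them toward the chromosome's end, had a median of -0.39, and 14 of the 16 were negative. Of all 3564 genes above the floor, 1984 were negative. These values are as deposited, without centring on the hybridisation controls. The MTR difference of -0.38 was 0.01 away from the median of its neighbours. The part of the surrounding segment in the MTR value was not tested. LMBRD1 on chromosome 6 read 0.05 among 20 neighbours with a median of 0.05. For the 7 genes below the floor the medians of the neighbours lay between -0.15 (MTRR) and 0.01 (CD320 and MMUT), and these were added after the values were seen.

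**Figure D3:**
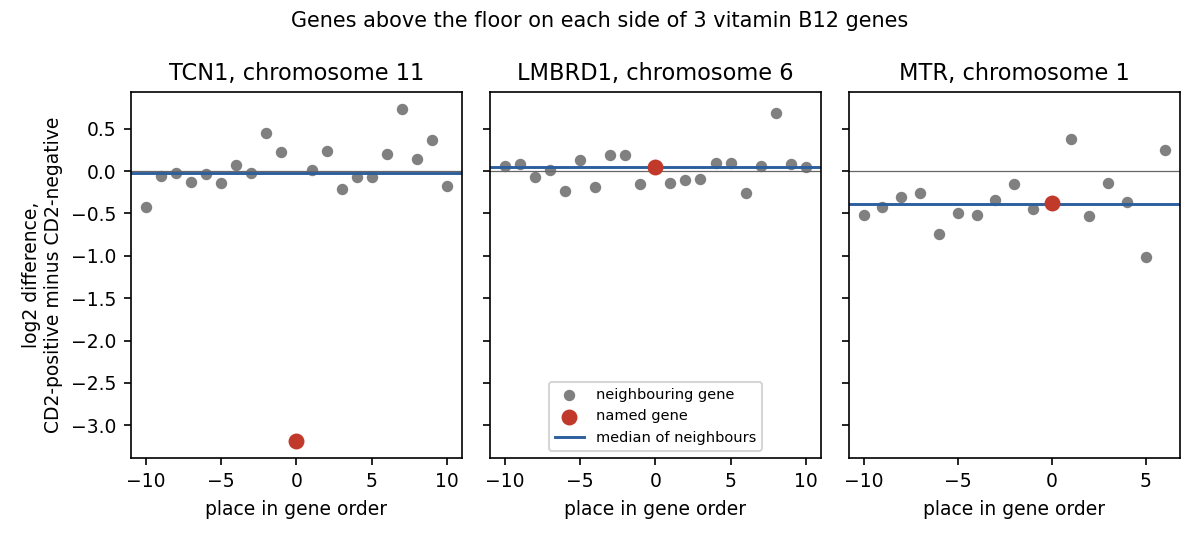
Log2 difference of TCN1, LMBRD1 and MTR (red) and of up to 10 genes above the floor on each side (grey) in gene order, with the median of the neighbours as a line. TCN1 at -3.19 lies apart from neighbours whose median is -0.03, whereas MTR at -0.38 lies at the median of its neighbours, -0.39.

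With a sample each, likeness to TCN1 can be stated only as closeness of the log2 difference between the 2 arrays. The nearest genes above the floor were TNFRSF10D (-2.77), HBD (-1.93) and TSPYL5 (-1.86), each with a single probe set above the floor. The first was 0.42 and the third 1.33 log2 units from TCN1. On the CD2+ and CD2- array TNFRSF10D read 11 and 75, HBD 20 and 76, and TSPYL5 19 and 69. Each thus reached the floor of 64 only on the CD2- array.

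Markers of other cells that make haptocorrin were read beside TCN1. Of 11 measured genes of neutrophil specific granules, 9 were at background on both arrays, with summed intensities of 39 and 39. LTF (lactoferrin) read 3 on both arrays, MMP8 2 on both, and CEACAM8 1 and 2 on the CD2+ and CD2- array. The highest of the list was CAMP, which encodes the antimicrobial peptide cathelicidin, at 16 and 15. Of 5 primary granule genes 4 were at background, MPO among them at 3 on both arrays, and CTSG (cathepsin G), a gene also known from mast cells, read 8 and 12. Their summed intensities were 19 on the CD2+ and 23 on the CD2- array. The 11 gastric and salivary epithelial genes read at most 6, and 7 of them were at background, with sums of 38 and 39. In these 3 lists CAMP and CTSG were the genes that read above 6. The 7 mast cell markers summed to 9598 on the CD2+ and 6222 on the CD2- array. All 6 above the floor were higher in the CD2-positive subclone, from 0.05 for KIT to 2.56 for CPA3, in the opposite direction to TCN1. Only CPA3 of the 6 was past 2-fold. By any amount, 1494 of all 3564 genes above the floor were higher. The part of the mast cell markers in the TCN1 result was not tested.

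The pathways around the vitamin were described through 4 lists of further genes. None of their 15 members above the floor was past 2-fold, against 1.96% of all genes above the floor. Other transport and cofactor partners had 10 of 11 genes measured and 3 above the floor, with a median of -0.28. PRDX1, a peroxiredoxin gene that neighbours MMACHC, was the farthest from 0 at 808 on the CD2+ and 1020 on the CD2- array (-0.34). MMADHC, whose product directs the vitamin to the cytosol or the mitochondrion, read 294 and 358 (-0.28). ABCC1, which encodes an exporter that can carry cobalamin out of cells, read 136 and 121 (0.17). The lysosomal partner of LMBRD1, ABCD4, read 18 and 16, and HCFC1, a co-regulator of MMACHC transcription, read 36 and 33, both below the floor. The intestinal and renal uptake receptors CUBN and LRP2 were at background, at 3 and 2 and at 2 and 2.

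**Figure D4:**
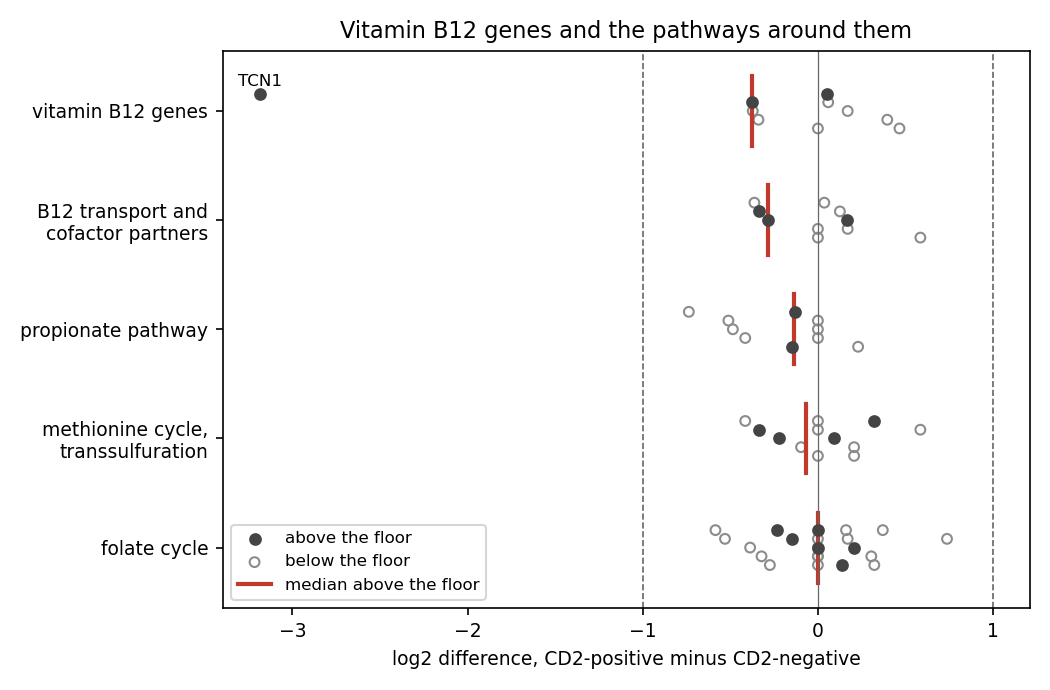
Log2 difference, CD2-positive minus CD2-negative, of each measured gene of the vitamin B12 group and of the 4 surrounding lists, filled above the floor and open below it, with the median above the floor as a red bar and dashed lines at 2-fold. TCN1 at -3.19 is the only gene of these lists past a dashed line.

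The steps that feed and drain the mutase had 2 of 10 genes above the floor. SUCLG1, a subunit gene of succinyl-CoA ligase, read 110 on the CD2+ and 122 on the CD2- array (-0.15) and PCCB, the beta subunit gene of propionyl-CoA carboxylase, read 64 and 70 (-0.13). Below the floor MCEE, the gene of methylmalonyl-CoA epimerase, the step before the mutase, read 9 and 15 (-0.74). SUCLG2 read 40 and 57, and SUCLA2 read 30 and 42. In the other direction HIBADH read 34 and 29 (0.23). PCCA was at background at 3 and 4, and HIBCH, ALDH6A1 and ACSF3 had the same value on both arrays, at 11, 10 and 8. When centred on the hybridisation controls the median of SUCLG1 and PCCB turned from -0.14 to 0.04.

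Methionine cycle and transsulfuration genes had 4 of 12 members above the floor, 2 higher and 2 lower in the CD2-positive subclone, with a median of -0.07, or 0.12 after centring on the hybridisation controls. MAT2A, the catalytic subunit gene of the enzyme that makes S-adenosylmethionine, read 465 on the CD2+ and 436 on the CD2- array (0.09). MAT2B, its regulatory subunit gene, read 134 and 169 and was the farthest from 0 (-0.33). AHCY, which encodes the hydrolase that forms homocysteine, read 75 and 60 (0.32).

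Folate cycle genes had 22 members measured and 6 above the floor, with a median of 0.00, or 0.18 after centring on the hybridisation controls. Thymidylate synthase (TYMS) read 375 and mitochondrial serine hydroxymethyltransferase (SHMT2) read 155, each the same on both arrays. MTHFD1 read 98 on the CD2+ and 89 on the CD2- array, and MTHFD2 read 278 and 308. ATIC, a purine synthesis gene that uses a folate cofactor, was the farthest from 0 at 96 and 113 (-0.24). The folate receptor gene FOLR1 read 129 and 112 (0.20). The median over all genes above the floor was -0.05.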

How the data were processed

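Per the submitters' processing notes, the authors normalised the arrays with RMA in Affymetrix Expression Console 1.1. The deposited intensities are linear and whole-numbered, as the values themselves show. Neither the kind of background correction nor the genome build is stated in the sources used here. Low intensities, and folds against them, depend on that correction. Quantile normalisation, a step of RMA, removes differences in total signal.

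Values were converted to log2 in Python 3.11.15 with pandas 2.3.3. Of 54675 probe sets, 41097 carried 1 symbol, 1801 several and 11777 none. Of the 41097, 41043 matched the RefSeq gene table (GRCh38.p14) by Entrez identifier, which gave current symbols and gene order. Probe sets with several symbols or none were left out, so a few listed genes are not reported here.

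Named were all members, CD2, the 3 genes nearest to TCN1 by difference, list members past 2-fold or else the one farthest from 0, and neutrophil granule markers. Any other named gene was picked with its values in view. Members and lists were chosen with earlier results of these data known. The rule was tested on simulated data only for changes larger than its own size, in genes with a mean level above that of TCN1. Variation between cultures was not simulated, so the test covers neither that variation nor dimmer genes. With 1 array per group, their number limits the precision.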

Additional observations from a re-analysis of the deposited data

How the results depend on the processing

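TCN1 stayed the only vitamin B12 gene past the size rule, and the gene with the most negative difference, under all 11 alternatives: floors of log2 5, log2 7 or none, rules of 1.5-fold or 3-fold, the mean of all probe sets, identifiers without _s, _x or _a, 3 corrections of centring or level, and 16 added units. Its log2 difference of -3.19 was -3.01 when centred on the hybridisation controls and -2.40 with 16 units added. Floors and size rules leave that difference unchanged, and the mean and plain identifiers return it from the single TCN1 probe set. With the mean TCN1 was the only member above the floor, and at log2 7 or with plain identifiers 2 members were. TCN1 was chosen for this difference, so its place under the alternatives is a description. The median of the members above the floor, -0.38 over 3 genes, was -1.57 at a floor of log2 7, 0.025 with no floor, -3.19 with the mean of all probe sets (TCN1 alone), -1.78 with plain identifiers and -0.20 centred on the hybridisation controls, so it depends on which few genes enter. The median of transport and cofactor partners was 0.037 at a floor of log2 5, 0.018 with no floor and -0.10 centred on the hybridisation controls. That of methionine cycle genes was -0.22 at a floor of log2 7, 0.25 with the mean, 0.12 centred on the controls and -0.31 with plain identifiers. Centring on the controls gave 0.043 for the propionate and 0.18 for the folate list. The propionate list had no gene above the floor at log2 7 or with the mean. No gene of the 4 lists passed the size rule under any alternative. Over all genes, the 70 counted became 125, 32 and 687 at floors of log2 5, log2 7 and none, 285 and 22 at 1.5-fold and 3-fold, 39 with the mean, 37 with plain identifiers and 44 with 16 units added. Of the counted genes alone, the share that was higher, 61.4%, was 83.5% centred on the controls and 75.0% at a floor of log2 7. No paired analysis was possible because each group has 1 array.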
